A study of Homo sapiens with 12 samples.

Results

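The genes described here encode the enzymes that add and remove acetyl and methyl groups on the lysines of histones, measured in BT549 cells after estrogen receptor β2 (ERβ2) was lowered or raised. Members were the genes whose symbol in the probe annotation begins with KDM, KMT or KAT and a digit, the numbered HDAC and SIRT genes, and EZH1, EZH2, EP300, CREBBP, EHMT1, EHMT2, NSD1, NSD2, NSD3 and DOT1L, with KDM1B left out. This gave 60 of the 17958 genes on the arrays. A gene was read by its transcript cluster, a set of probes summarised into 1 value per array, and the cluster with the highest mean was taken for the 4 members that have several. The rule used gene symbols and mean signal and no difference between groups, but it was set with earlier results of these data known.

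BT549 cells come from a breast tumour without ERα, progesterone receptor or HER2 (triple-negative), and all groups were cells of this 1 line grown in RPMI medium with fetal bovine serum. Cells received control siRNA or siRNA against ERβ2, with RNA taken at 48 h, or a pcDNA3 empty vector (EV) or pcDNA3 carrying FLAG-tagged ERβ2 cDNA, with RNA taken at 24 h. Each of the 4 groups had 3 biological replicates. Both plasmid groups were transfected with another reagent and at a higher confluency than both siRNA groups, the ERβ2 plasmid was present only transiently, and which siRNA set against ERβ2 was used for the arrays is not given in the labels or methods.

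Acetylation of histone lysines loosens chromatin and accompanies transcription. Acetyltransferases such as p300 and CBP write it, and deacetylases of the HDAC and sirtuin families erase it. Lysine methylation acts by position. Methylation of lysine 4 of histone H3 (H3K4) by enzymes of the KMT2 group marks active genes. H3K9 methylation by EHMT1 and EHMT2 and H3K27 methylation by EZH1 and EZH2 accompany silencing. Most lysine demethylases of the KDM group belong to the JmjC proteins, which need oxygen, iron and 2-oxoglutarate. In breast cancer EZH2, KDM1A, HDAC1 and HDAC2 are well-known members of these families.

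Promoter sequences are shown for the 3 members with the largest changes after ERβ2 knockdown, KDM7A, which rose, and KDM3B and KDM4D, which fell. Each is the 250 bases before the gene start in RefSeq on GRCh38.p14, 5′ to 3′ on the strand of the gene. KDM7A lies at chr7:140176984-140177233 on the minus strand, KDM3B at chr5:138352435-138352684 on the plus strand and KDM4D at chr11:94973459-94973708 on the plus strand. Capitals mark a match to any of the 4 motifs named below, and lower case is the rest.
KDM7A: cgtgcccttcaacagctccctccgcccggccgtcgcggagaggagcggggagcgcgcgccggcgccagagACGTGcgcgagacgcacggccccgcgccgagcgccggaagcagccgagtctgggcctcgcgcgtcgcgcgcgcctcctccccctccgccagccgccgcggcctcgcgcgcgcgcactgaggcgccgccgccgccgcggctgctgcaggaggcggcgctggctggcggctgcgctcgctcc
KDM3B: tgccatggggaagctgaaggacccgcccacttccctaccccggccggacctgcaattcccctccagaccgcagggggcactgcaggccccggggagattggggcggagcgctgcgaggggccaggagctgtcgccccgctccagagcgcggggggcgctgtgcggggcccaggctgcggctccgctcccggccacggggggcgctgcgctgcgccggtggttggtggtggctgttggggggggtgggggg
KDM4D: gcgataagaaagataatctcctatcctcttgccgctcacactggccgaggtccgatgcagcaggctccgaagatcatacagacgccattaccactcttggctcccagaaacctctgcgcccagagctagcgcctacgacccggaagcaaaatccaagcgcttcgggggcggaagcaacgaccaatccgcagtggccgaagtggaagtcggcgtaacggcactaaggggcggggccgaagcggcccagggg

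The capitals in the KDM7A sequence are an ACGTG, the core of the hypoxia response element, 180 to 176 bases before the start. The KDM3B and KDM4D sequences held no match. The motifs searched on both strands were ACGTG, the CHR element of cell cycle genes (TTTGAA), the E2F site (TTCCCGC or TTGGCGC) and the full estrogen response element (AGGTCANNNTGACCT). No motif contains the letters of another. A promoter was found for 54 of the 60 members. Of these, 15 (27.8%) held ACGTG, against 21.7% of all 27305 genes with a promoter, 7 (13%) held an E2F site against 9.4%, 4 (7.41%) held TTTGAA against 16.1%, and none held the full estrogen response element, which 1 gene in the table had. ACGTG was present in 4 of 8 promoters (50%) of members that rose after knockdown (HDAC4, KDM4C, KDM7A and KMT2D). It was in 4 of 12 (33.3%) of those that fell (KAT5, KAT7, NSD1 and SIRT1) and in 7 of 34 (20.6%) of those that did not pass. A match of letters is a description and not a binding site.

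The targeted gene ESR2, read by 1 cluster for all isoforms of ERβ, had log2 values of 4.03, 3.88 and 4.05 with control siRNA and 4.12, 3.99 and 3.8 with ERβ2 siRNA. These overlap (change −0.02, standard error 0.09, adjusted p = 0.913 from limma), so the arrays give no check of the knockdown. The ESR2 signal was dim, with the same mean as ESR1 with control siRNA (3.99), so a fall may not be visible. With EV ESR2 read 4.08, 3.93 and 4.01, and with the ERβ2 plasmid 4.35, 4.72 and 4.37, all above EV (change 0.47, adjusted p = 0.449). The study itself reported lower ERβ2 mRNA by qPCR in BT549 cells after the siRNA. It also reported more ERβ2 protein by Western blot after the plasmid. The array medians lay between 5.04 and 5.14. The correlation of an array with the others of its group was 0.9933 for EV replicate 2 and from 0.9954 to 0.9969 for the other arrays. The mesenchymal markers VIM, SPARC, FN1, ZEB1 and CDH2 had mean signals at or above those of 81.6% or more of all genes. Of the epithelial or luminal markers, ESR1, PGR, CDH1 and EPCAM lay at 20.2% at most. KRT19 lay at 39.9% and KRT18 at 91.4%, so these markers were not all low. Of the 6 epithelial or luminal markers, 2 were higher with ERβ2 siRNA than with control siRNA, where 18.3% of all genes were higher. They were the keratin KRT18 (from 10.23 to 11.1, difference 0.88, adjusted p = 2.5e-04 from limma) and CDH1 (0.17, adjusted p = 0.0997). With EV 2 of the 6 were lower than with control siRNA, where 26.6% of all genes were lower. They were KRT18 (mean 9.33, difference −0.89) and KRT19 (from 5.69 to 4.75, difference −0.95). The log2 values of the 6 summed to 31.08 to 31.83 with control siRNA, 32.15 to 32.67 with ERβ2 siRNA, 28.91 to 29.42 with EV and 28.58 to 30.73 with the ERβ2 plasmid. KRT18 moved most in these sums after knockdown, and KRT18 and KRT19 between the controls. Of the 5 mesenchymal markers FN1 was higher with ERβ2 siRNA (0.42). CDH2, ZEB1 and FN1 were higher with EV than with control siRNA, where 21.1% of all genes were higher. The sums of the 5 lay at 53.5 to 53.84, 53.89 to 54.09, 54.85 to 55.1 and 54.93 to 55.01 in the same order. The part of these markers in the results below was not tested. In bulk RNA such as this, fewer cells that express a gene cannot be told apart from less RNA of it per cell.

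After ERβ2 knockdown 9 of the 60 members rose and 12 fell, while 39 did not pass the test (limma, adjusted over all genes, threshold 0.1). The share that passed, 35%, was close to the 35.8% of all genes, 18.3% higher and 17.5% lower. The median log2 change of the members was 0.01, against −0.03 over all genes, and the calls lay on both sides of 0. The split depended on the scaling. With each array centred on its median 13 rose and 8 fell, and after a second quantile normalization 7 rose and 15 fell. Without control siRNA replicate 2, in a fit of all clusters, and at an adjusted p of 0.05, 5 rose and 11 fell. The split over all genes was not counted under these settings, so whether the members followed it was not tested. Changes of at least 1.5-fold were found for 2 members, KDM7A and KDM3B, where 4.52% of all genes passed this cut-off. The log2 changes of the 38 members that did not pass and have values shown ran from −0.14 to 0.23. KDM5D, a Y-linked gene, is counted with the members but its values are not shown. Of 23 listed pairs of closest relatives, none had 1 gene that rose and 1 that fell. Members of the same family outside this list did so, KDM4C with KDM4D, and HDAC4 with HDAC7 and HDAC9.

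**Figure D1:**
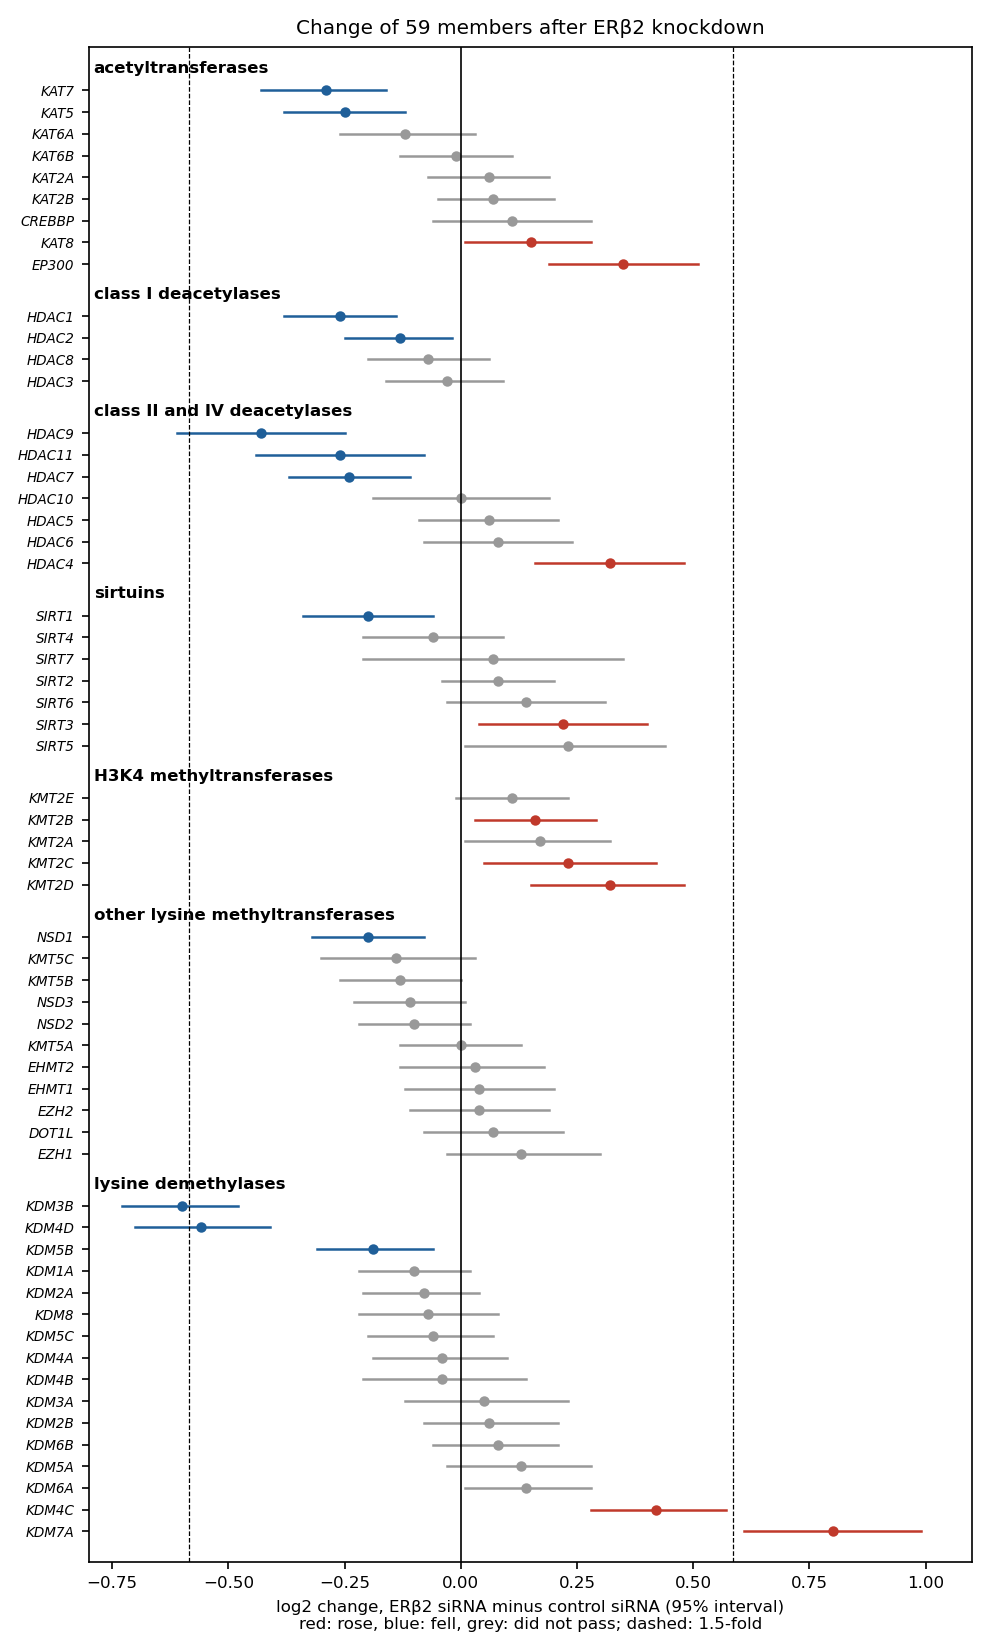
Log2 change (x axis, point) with its 95% confidence interval (line) after ERβ2 knockdown for 59 members by class, 3 arrays per group, with red for members that rose, blue for those that fell and grey for those that did not pass. The point of KDM7A stands to the right of the dashed 1.5-fold line and that of KDM3B just past it on the left, while the other points lie inside the dashed lines. The intervals of KDM3B, KDM4D and HDAC9 cross the left line.

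The lysine demethylases held the widest changes in both directions. KDM7A, a JmjC enzyme that acts on H3K9 and H3K27, read 5.54, 5.42 and 5.54 with control siRNA and 6.48, 6.21 and 6.22 with ERβ2 siRNA. Every knockdown array lay above every control. The rise was 1.75-fold (log2 change 0.80, standard error 0.08, adjusted p = 2.3e-04 from limma). KDM4C, which removes methyl groups from H3K9 and H3K36, read 8.77, 8.61 and 8.67 with control siRNA and 9.17, 9.1 and 9.05 with ERβ2 siRNA, again without overlap. It rose by 0.42 (standard error 0.06, adjusted p = 0.00167). KDM3B, an H3K9 demethylase, read 9.87, 9.78 and 9.82 with control siRNA and 9.24, 9.23 and 9.19 with ERβ2 siRNA. Both sets were narrow and lay apart. It fell by 0.60 on the log2 scale, to 0.658 of the control (standard error 0.05, adjusted p = 1.1e-04), and by 0.58, just short of 1.5-fold, without control siRNA replicate 1. KDM4D, a relative of KDM4C, went the other way from it. Its values were 6.23, 6.06 and 6.09 with control siRNA and 5.54, 5.55 and 5.62 with ERβ2 siRNA. It fell by 0.56 (standard error 0.06, adjusted p = 4.1e-04) and passed 1.5-fold without control siRNA replicate 2 (−0.59). This pair was picked out after its values were seen.

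KDM5B, an H3K4 demethylase often raised in breast tumours, had smaller differences. Its values were 10.31, 10.29 and 10.32 with control siRNA and 10.15, 10.07 and 10.14 with ERβ2 siRNA. It fell by 0.19 (standard error 0.05, adjusted p = 0.0319), but did not pass with each array centred on its median (adjusted p = 0.151) or without ERβ2 siRNA replicate 2 (0.101). KDM1A, the flavin-dependent H3K4 demethylase LSD1, read 10.95, 10.96 and 10.92 against 10.88, 10.81 and 10.85. Its groups did not overlap, yet the change of −0.10 did not pass (standard error 0.05, adjusted p = 0.210). It passed with an intensity trend (0.0605) and in the methods' t-test (0.0661). Of the 17 measured demethylases 2 rose, 3 fell and 12 did not pass, so that 29.4% passed, against 35.8% of all genes. KDM3A, the relative of KDM3B, had a change of 0.05 (95% confidence interval −0.12 to 0.23), and KDM4A and KDM4B, the relatives of KDM4C, each had −0.04. The H3K27 demethylases KDM6A and KDM6B had changes of 0.14 (adjusted p = 0.102) and 0.08 (adjusted p = 0.373).

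**Figure D2:**
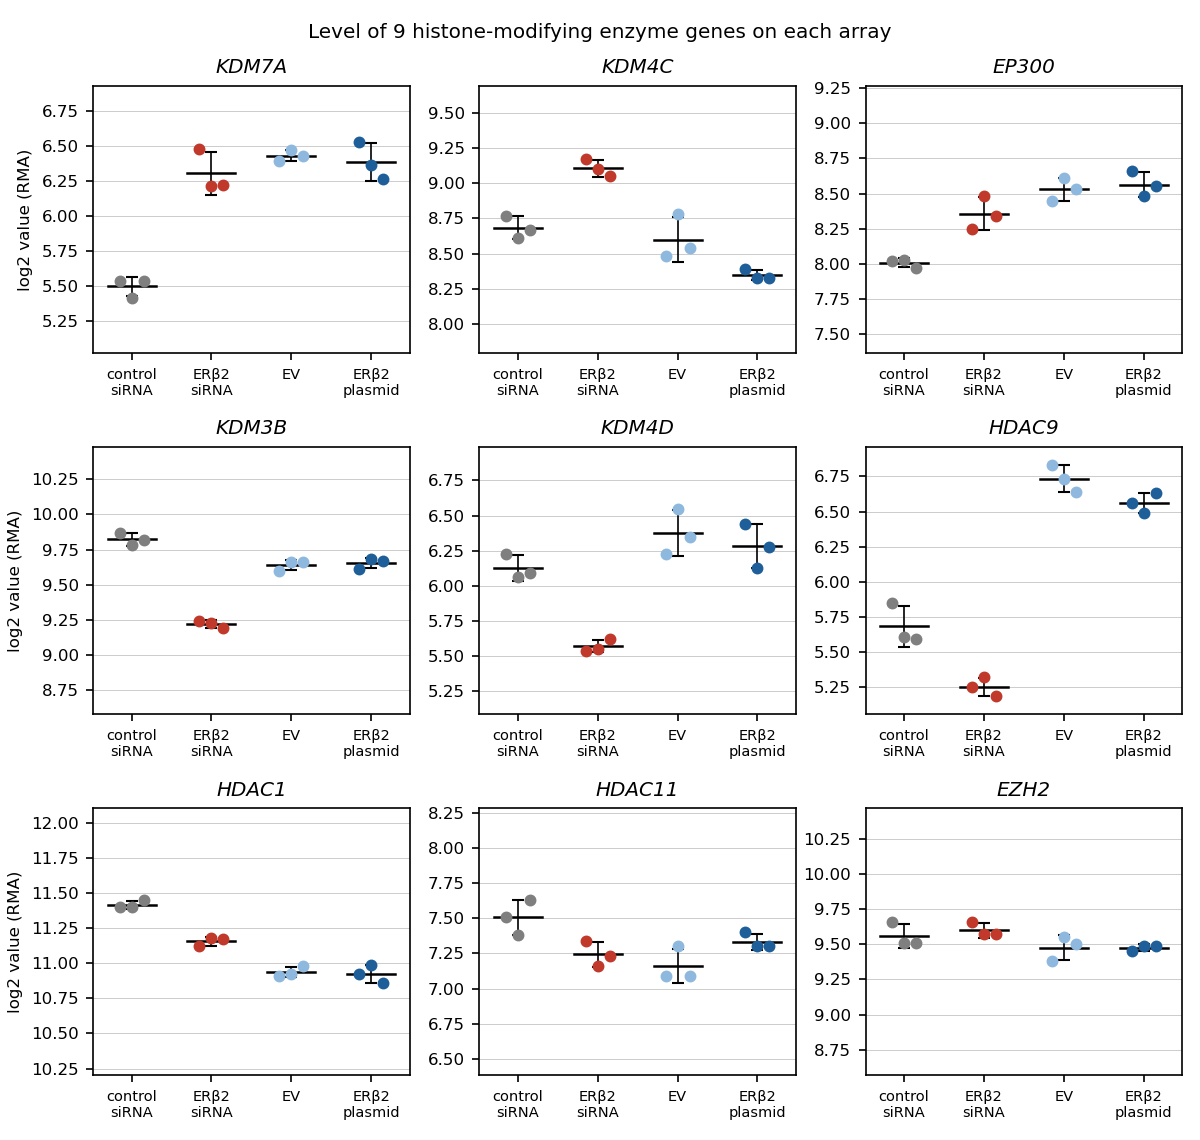
Log2 value (y axis, RMA) of 9 members on each of the 12 arrays (points), with the mean (bar) and SD (whiskers) of the 3 arrays per group. Every panel spans the same range, and levels cannot be compared between genes. KDM7A is low with control siRNA alone, KDM3B and KDM4D are low with ERβ2 siRNA alone, KDM4C is highest with ERβ2 siRNA, and EZH2 is level.

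Among the acetyltransferases EP300, which encodes p300, had the largest rise. It read 8.02, 8.03 and 7.97 with control siRNA and 8.25, 8.48 and 8.34 with ERβ2 siRNA, with no overlap. The rise of 0.35, 1.27-fold, passed (standard error 0.07, adjusted p = 0.00639 from limma). For its close relative CREBBP, which encodes CBP, the values were 9.11, 8.9 and 9.03 against 9.06, 9.21 and 9.1, which overlap, and the change of 0.11 did not pass (95% confidence interval −0.06 to 0.28, adjusted p = 0.295). KAT7 (HBO1), the catalytic subunit of a complex that acetylates histones H3 and H4 and takes part in replication licensing, read 9.56, 9.43 and 9.45 against 9.21, 9.16 and 9.19. It fell by 0.29 (standard error 0.06, adjusted p = 0.00647). KAT5 (TIP60), which works in DNA repair, fell by 0.25, from 7.76, 7.65 and 7.65 to 7.43, 7.42 and 7.46 (standard error 0.06, adjusted p = 0.012). KAT8 (MOF), which acetylates histone H4, read 7.47, 7.34 and 7.45 against 7.59, 7.54 and 7.57. Its rise of 0.15 passed narrowly (standard error 0.06, adjusted p = 0.0973) and did not pass without any 1 of 5 of the 6 arrays (adjusted p from 0.139 to 0.259), control siRNA replicate 1 being the exception, nor after a second quantile normalization (0.169), with an intensity trend (0.112) or in a fit of all clusters (0.162). Of the 9 measured acetyltransferases 2 rose, 2 fell and 5 did not pass. In each direction this is 22.2%, against 18.3% higher and 17.5% lower over all genes.

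Of the 4 class I deacetylases, most of them nuclear enzymes of large corepressor complexes, 2 fell after knockdown, and none had a higher mean, except HDAC3 at 0.02 with each array centred on its median. HDAC1 read 11.4, 11.4 and 11.45 with control siRNA and 11.12, 11.18 and 11.17 with ERβ2 siRNA. It fell by 0.26, to 0.835 of the control (standard error 0.05, adjusted p = 0.00734 from limma). HDAC2, its partner in the same complexes, read 10.42, 10.46 and 10.4 against 10.29, 10.29 and 10.3. It fell by 0.13 (standard error 0.05, adjusted p = 0.0906). This call was weak, since HDAC2 did not pass when any 1 of the 6 arrays was left out (adjusted p from 0.114 to 0.212), with each array centred on its median (0.405), in a fit of all clusters (0.142) or with the replicate number as a block (0.108). HDAC8 and HDAC3 had changes of −0.07 and −0.03 that did not pass. The median change of the class was −0.10, and over all genes 17.5% fell.

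The class II and IV deacetylases, many of them signal-responsive enzymes that move between cytoplasm and nucleus, moved in both directions. HDAC9, a class IIa enzyme, read 5.85, 5.61 and 5.59 with control siRNA and 5.25, 5.32 and 5.19 with ERβ2 siRNA, without overlap. It fell by 0.43 (standard error 0.08, adjusted p = 0.00487 from limma). HDAC4 of the same class read 6.5, 6.36 and 6.59 against 6.76, 6.79 and 6.85. It rose by 0.32 (standard error 0.07, adjusted p = 0.011). HDAC7, also of class IIa, fell by 0.24, from 6.81, 6.78 and 6.83 to 6.64, 6.56 and 6.5 (standard error 0.06, adjusted p = 0.0161). HDAC11, the only class IV enzyme, read 7.51, 7.38 and 7.63 against 7.34, 7.16 and 7.23. It fell by 0.26 (standard error 0.08, adjusted p = 0.0388), and did not pass without control siRNA replicate 3 (−0.20, adjusted p = 0.119) or without ERβ2 siRNA replicate 2 (−0.22, 0.111) or 3 (−0.26, 0.103), nor in the methods' t-test (0.130). Of these 7 enzymes 1 rose, 3 fell and 3, HDAC5, HDAC6 and HDAC10, did not pass, 57.1% passing against 35.8% of all genes.

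Of the 7 sirtuins, the deacylases that use NAD, SIRT1 fell, SIRT3 rose and 5 did not pass, 28.6% passing against 35.8% of all genes. SIRT1, mainly nuclear, read 9.64, 9.49 and 9.57 with control siRNA and 9.32, 9.35 and 9.42 with ERβ2 siRNA. It fell by 0.20 (standard error 0.06, adjusted p = 0.0404 from limma), but did not pass without ERβ2 siRNA replicate 1 (−0.18, adjusted p = 0.116) or with each array centred on its median (0.140). SIRT3, which resides in mitochondria, read 7.17, 7.05 and 7.29 against 7.49, 7.35 and 7.33, with the groups close together. It rose by 0.22 (standard error 0.08, adjusted p = 0.0673) and did not pass without control siRNA replicate 1 or 2 or ERβ2 siRNA replicate 1 (adjusted p from 0.121 to 0.192), in the methods' t-test (0.168) or in a fit of all clusters (0.137). SIRT5, another mitochondrial member, had the change of 0.23 that was the largest among those that did not pass (adjusted p = 0.110).

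Of the 5 KMT2 genes, grouped here by name as H3K4 methyltransferases, 3 rose after knockdown (60%), against 18.3% of all genes. The changes of the 5 ran from 0.11 (KMT2E) to 0.32 (KMT2D). After a second quantile normalization 2 of them rose, and with each array centred on its median all 5, with no share over all genes counted there. KMT2D, which with KMT2C methylates H3K4 at enhancers, read 7.0, 7.01 and 7.09 with control siRNA and 7.32, 7.48 and 7.25 with ERβ2 siRNA. It rose by 0.32 (standard error 0.07, adjusted p = 0.0116 from limma), and did not pass in 1 fit of all 4 groups (adjusted p = 0.130). KMT2C read 8.71, 8.68 and 8.64 against 8.77, 9.08 and 8.88, with ERβ2 siRNA replicate 2 the highest. It rose by 0.23 (standard error 0.08, adjusted p = 0.0651), and by 0.15 without that array, where it did not pass (0.159). It also did not pass in the methods' t-test (0.175), in a fit of all clusters (0.136), without control siRNA replicate 2 (0.132) or 3 (0.157) or ERβ2 siRNA replicate 3 (0.118). KMT2B, a promoter-bound enzyme, read 6.81, 6.68 and 6.76 against 6.89, 6.91 and 6.93. Its rise of 0.16 (standard error 0.06, adjusted p = 0.0706) was lost without any 1 array but control siRNA replicate 1 (adjusted p from 0.118 to 0.195), after a second quantile normalization (0.202), with an intensity trend (0.123) and in a fit of all clusters (0.124). KMT2A, the MLL gene of leukaemia, differed by 0.17 without passing (adjusted p = 0.110). In a fit of all clusters its adjusted p was 0.19, and a second, dimmer cluster of it had 0.07 (adjusted p = 0.706).

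Of the 11 other methyltransferases 1 fell and 10 did not pass, 9.09% against 35.8% of all genes. The count followed the scaling. After a second quantile normalization 4 fell (KMT5B, KMT5C, NSD1 and NSD2), after cyclic loess 2 (KMT5B and NSD1), and with each array centred on its median 0. Shares over all genes were not counted under these scalings. NSD1, an H3K36 enzyme, read 7.87, 7.92 and 7.85 with control siRNA and 7.69, 7.7 and 7.66 with ERβ2 siRNA, and fell by 0.20 (standard error 0.05, adjusted p = 0.0247 from limma, 0.131 with each array centred on its median). EZH2, the catalytic subunit of Polycomb complex PRC2, read 9.66, 9.51 and 9.51 against 9.66, 9.57 and 9.57. The change was 0.04 (95% confidence interval −0.11 to 0.19, adjusted p = 0.683). EHMT2 (G9a) read 8.67, 8.55 and 8.65 against 8.75, 8.62 and 8.58, a change of 0.03 (95% confidence interval −0.13 to 0.18, adjusted p = 0.800). It has a second cluster whose values are identical on all 12 arrays. The remaining 8, EZH1, EHMT1, NSD2, NSD3, DOT1L, KMT5A, KMT5B and KMT5C, had changes from −0.14 to 0.13. The brightest KMT5A clusters had 0.00 and −0.01. KDM8, the fourth gene with more than 1 cluster, had −0.07 and, on a dimmer cluster, −0.23 (adjusted p = 0.198 in a fit of all clusters). Thus no cluster pair of a member disagreed in a call after knockdown.

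Of 96 measured partner genes, the subunits, related SET domain enzymes, readers and further JmjC proteins of these complexes, 12 rose, 22 fell and 62 did not pass. The share that passed, 35.4%, was close to the 35.8% of all genes, with 12.5% higher against 18.3% and 22.9% lower against 17.5%. Their list was chosen with earlier results of these data known. SETD7, a methyltransferase first described for H3K4, had the largest rise, from a mean log2 value of 7.91 to 9.05 (change 1.13, standard error 0.06, adjusted p = 8.0e-06 from limma). SMYD3, another SET domain enzyme, rose by 0.30. Of 14 such enzymes 3 rose and 2 fell, 35.7% against 35.8% of all genes. PHF19, which brings PRC2 to chromatin, fell by 0.74 (from 9.12 to 8.38, adjusted p = 1.9e-04), and JARID2, a cofactor of PRC2, rose by 0.45 (adjusted p = 6.4e-04), while EZH2 itself was level. Of 9 PRC2 partners 1 rose and 2 fell, 33.3% against 35.8% of all genes. RBBP5, a core subunit of KMT2 complexes, fell by 0.60 (from 8.96 to 8.36, adjusted p = 4.3e-04 from limma). CXXC1, which guides the SETD1 complexes to CpG islands, fell by 0.19 (adjusted p = 0.0672). Of the 11 genes in this list, which also holds the enzymes SETD1A and SETD1B, none rose and 3 fell, 27.3% against 17.5% of all genes that were lower. BRD3, a BET protein that binds acetylated histones, fell by 0.71 (from 8.38 to 7.67, adjusted p = 4.7e-05), the 1 of 3 measured BET genes that passed (33.3%). Of 31 acetyltransferase partners and further acetyltransferases 8 fell and 2 rose, 32.3% against 35.8% of all genes, with BRPF3 at −0.33 and KANSL1, a scaffold of the KAT8 complex, at −0.32. Of 21 corepressor subunits 5 rose and 3 fell (38.1%), among them CHD3 at 0.27 and GATAD2B at −0.28, both of the NuRD complex. Of 7 further JmjC proteins 3 fell and 1 rose, 57.1% against 35.8% of all genes, with PHF2 at −0.31 and RIOX2 at 0.25.

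**Figure D3:**
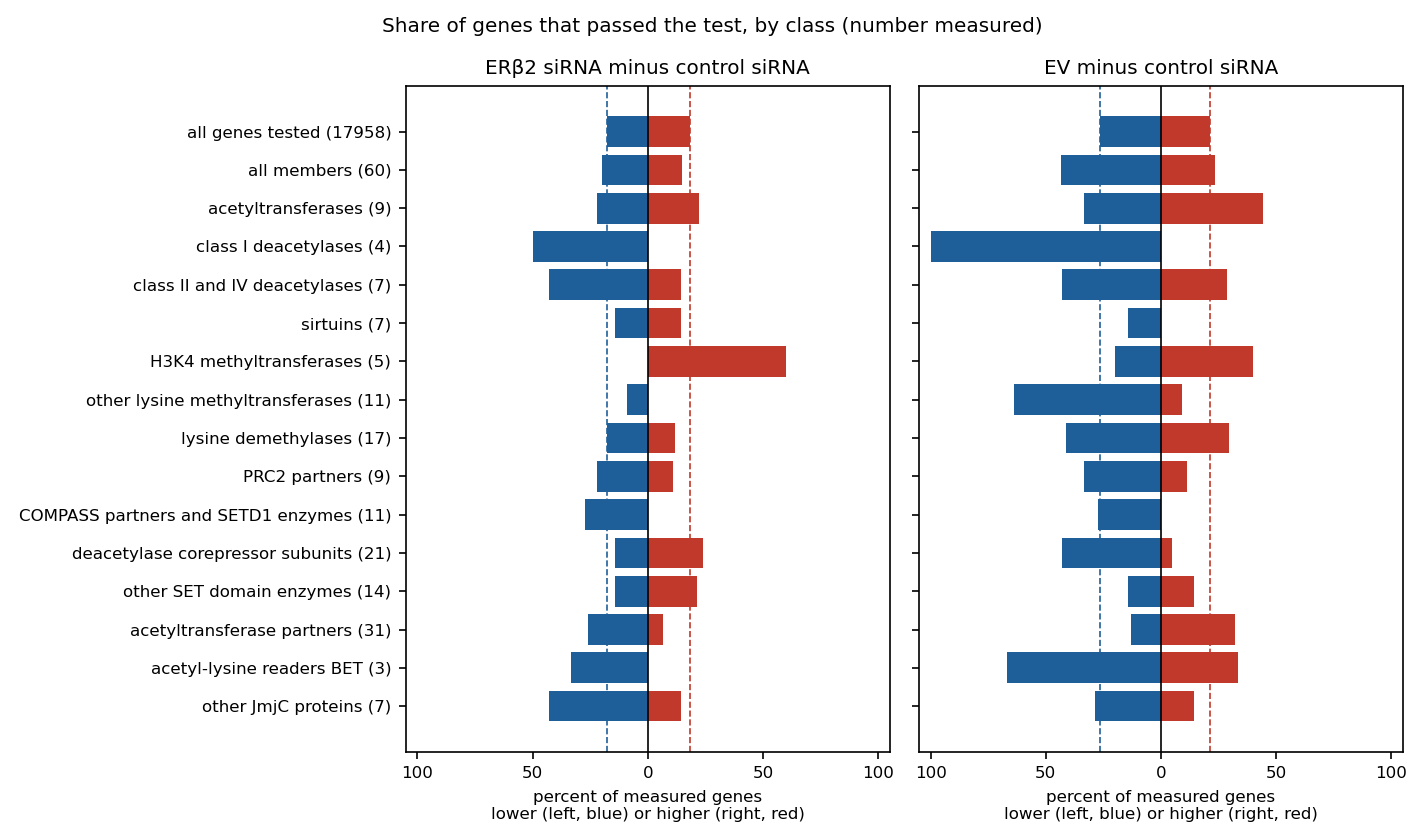
Percent of the measured genes of each class (number in brackets) that were higher (right, red) or lower (left, blue) and passed, in limma after Benjamini-Hochberg adjustment, with ERβ2 siRNA (left panel) and between EV and control siRNA (right panel), with dashed lines at the shares over all genes. After knockdown all members together lie near the dashed lines and the H3K4 methyltransferases have no lower gene, while all 4 class I deacetylases were lower with EV.

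With the ERβ2 plasmid no member passed against EV. Over all genes 0.0111% passed in limma. At an unadjusted p under 0.05 there were 3 members, against 7.02% of all genes, and the methods' t-test gave 1 at that level and 0 after adjustment. The log2 changes of the members ran from −0.25 (KDM4C) to 0.17 (HDAC11). The 3 members were KDM4C, HDAC9 and HDAC11. KDM4C read 8.48, 8.78 and 8.54 with EV and 8.39, 8.33 and 8.33 with ERβ2, lower on every ERβ2 array, a change of −0.25 with a 95% confidence interval of −0.44 to −0.06 (limma, adjusted p = 0.585). It was −0.16 without EV replicate 2. HDAC9 read 6.83, 6.73 and 6.64 against 6.56, 6.49 and 6.63, also without overlap (change −0.17, 95% confidence interval −0.33 to −0.02, adjusted p = 0.675). HDAC11 read 7.09, 7.3 and 7.09 against 7.4, 7.3 and 7.3, where the groups touch (change 0.17, 95% confidence interval 0.01 to 0.34, adjusted p = 0.696). EZH2 had equal means of 9.48 (95% confidence interval of the change −0.14 to 0.14), and KDM7A and KDM3B had changes of −0.05 (−0.22 to 0.13) and 0.01 (−0.11 to 0.13).

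The effect of knockdown differed from the effect of overexpression for 14 members, 7 higher and 7 lower, in 1 limma fit over all 12 arrays at the same threshold. This is 23.3% of the members, against 26.4% of all genes, 15% higher and 11.3% lower. After cyclic loess 7 were higher and 11 lower, without a count over all genes. At 1.5-fold or more there were 3, KDM7A, KDM4C and KDM3B, against 5.51% of all genes. The difference was 0.85 for KDM7A (standard error 0.12, adjusted p = 2.8e-04), 0.67 for KDM4C (standard error 0.11, adjusted p = 7.2e-04), −0.62 for KDM3B (standard error 0.07, adjusted p = 4.8e-05), −0.46 for KDM4D (standard error 0.13, adjusted p = 0.0227) and −0.44 for HDAC11 (standard error 0.11, adjusted p = 0.0151). For KDM7A, KDM3B and KDM4D the knockdown changes were 0.80, −0.60 and −0.56 and those with the plasmid −0.05, 0.01 and −0.09. For KDM4C and HDAC11 the changes with the plasmid were −0.25 and 0.17, opposite in sign to those after knockdown, and did not pass. Opposite signs were not particular to them, since KDM7A and KDM3B also had them with smaller plasmid changes. A test of the difference of both effects favours members with opposite signs. The other members with a higher value were EP300 (0.32), HDAC4 (0.42), KMT2C (0.37), KDM6A (0.21) and KMT2E (0.17), and those with a lower value KAT7 (−0.34), SIRT1 (−0.25), HDAC1 (−0.25) and HDAC7 (−0.18). For HDAC9 the difference of −0.26 did not pass (adjusted p = 0.122). The siRNA and plasmid experiments also differ in time, reagent, confluency and nucleic acid, which cannot be told apart from ERβ2 in this difference. On the arrays ESR2 itself passed in neither experiment.

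**Figure D4:**
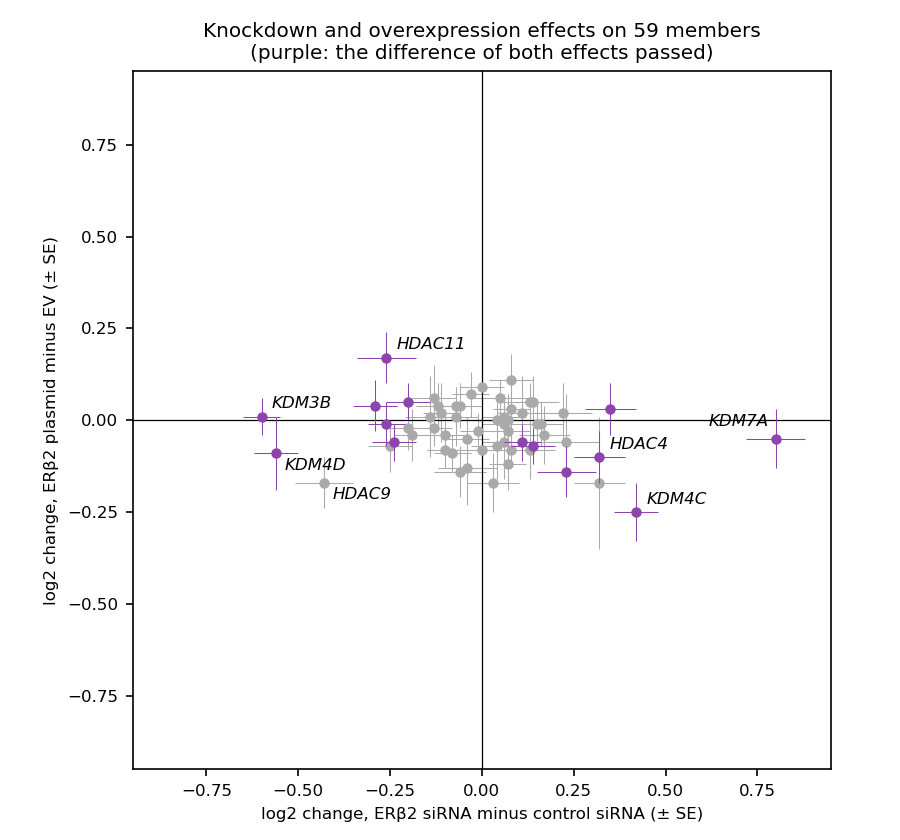
Log2 change after knockdown (x axis) against log2 change with the ERβ2 plasmid (y axis) for 59 members, each with its standard error, in purple where the difference of both effects passed in limma. The points spread along the x axis from −0.60 to 0.80 and stay between −0.25 and 0.17 on the y axis.

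The control groups differ in time, reagent, confluency and nucleic acid at once, which cannot be told apart. With EV 14 members were higher and 26 lower than with control siRNA, and 20 did not pass (1 fit over all 12 arrays). The share of 66.7% compares with 47.8% of all genes, 21.1% higher and 26.6% lower, and the median log2 change was −0.08 against −0.06. All genes here include dim ones, and the share among genes as bright as the members was not counted. The part of signal level in this gap was not tested. After a second quantile normalization 9 were higher and 30 lower, without a count over all genes. At 1.5-fold or more there were 2, HDAC9 and KDM7A, against 6.86% of all genes. KDM5D is among the lower ones.

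HDAC9 had the largest difference between the controls. It read 5.85, 5.61 and 5.59 with control siRNA and 6.83, 6.73 and 6.64 with EV, 2.07-fold higher (log2 difference 1.05, standard error 0.08, adjusted p = 3.6e-07 from limma). KDM7A was next at 6.39, 6.47 and 6.43 with EV, 1.91-fold higher (0.93, standard error 0.08, adjusted p = 2.3e-06). Both plasmid groups and the ERβ2 siRNA group thus had KDM7A between 6.21 and 6.53, and the control siRNA arrays alone lay lower, at 5.54 or below. EP300 was likewise lowest with control siRNA and read 8.45, 8.61 and 8.53 with EV (0.52, standard error 0.07, adjusted p = 6.9e-05). KMT2D read 7.34, 7.94 and 7.5 with EV (0.56, standard error 0.15, adjusted p = 0.00994), and was 0.39 higher without EV replicate 2, the highest of the 3. It did not pass in the methods' t-test (0.109). CREBBP, at 9.26, 9.55 and 9.3 with EV, differed by 0.36 (adjusted p = 0.00712), although it did not pass after knockdown.

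All 4 class I deacetylases were lower with EV than with control siRNA, also under the other 3 scalings tried. With the deposited scaling 26.6% of all genes were lower, 43.3% of all members, and 7 (63.6%) of the 11 other methyltransferases. HDAC1 read 10.91, 10.92 and 10.98 with EV against about 11.4 (difference −0.48, standard error 0.05, adjusted p = 8.9e-06 from limma), HDAC8 8.91, 8.96 and 8.89 against 9.3, 9.43 and 9.39 (−0.45, adjusted p = 1.2e-05), HDAC2 differed by −0.29 and HDAC3 by −0.21. HDAC1 had its highest values with control siRNA, lower ones with ERβ2 siRNA and the lowest in both plasmid groups, whose values, from 10.86 to 10.99, overlapped. HDAC5, a class IIa enzyme, read 6.46, 6.58 and 6.49 with EV against 6.98, 6.93 and 7.06 (−0.48, adjusted p = 4.0e-05), while its level after knockdown (7.11, 6.96 and 7.08) overlapped the control. KDM5B had the widest fall on this side, at 9.67, 9.83 and 9.78 with EV (−0.55, standard error 0.06, adjusted p = 8.6e-06). KDM1A read 10.52, 10.5 and 10.48 with EV (−0.44, adjusted p = 7.4e-06), and EHMT2 8.14, 8.43 and 8.22 (−0.36, adjusted p = 0.00215). EZH2 did not pass here either, at 9.38, 9.55 and 9.5 (−0.08, adjusted p = 0.292). The dimmer KMT2A cluster was higher with EV (0.31, adjusted p = 0.0784 in a fit of all clusters), where the brighter one did not pass (0.13, adjusted p = 0.279).

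The comparisons of ERβ2 siRNA and of EV with control siRNA share the 3 control arrays, so their values are given side by side and no overlap was counted. KDM4D had −0.56 with ERβ2 siRNA and 0.25 with EV (adjusted p = 0.0448 for the latter), with overlapping EV and control values. KAT5 had −0.25 and 0.13 (adjusted p = 0.0973), HDAC9 −0.43 and 1.05, and SIRT3 0.22 and −0.29 (adjusted p = 0.0127). KDM4C had 0.42 and −0.08, of which the latter did not pass (adjusted p = 0.398). Of the 23 listed pairs, 3 went opposite ways between the controls: KAT2A was higher and KAT2B lower, HDAC9 higher and HDAC7 lower, and KDM5A higher and KDM5B lower.

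**Figure D5:**
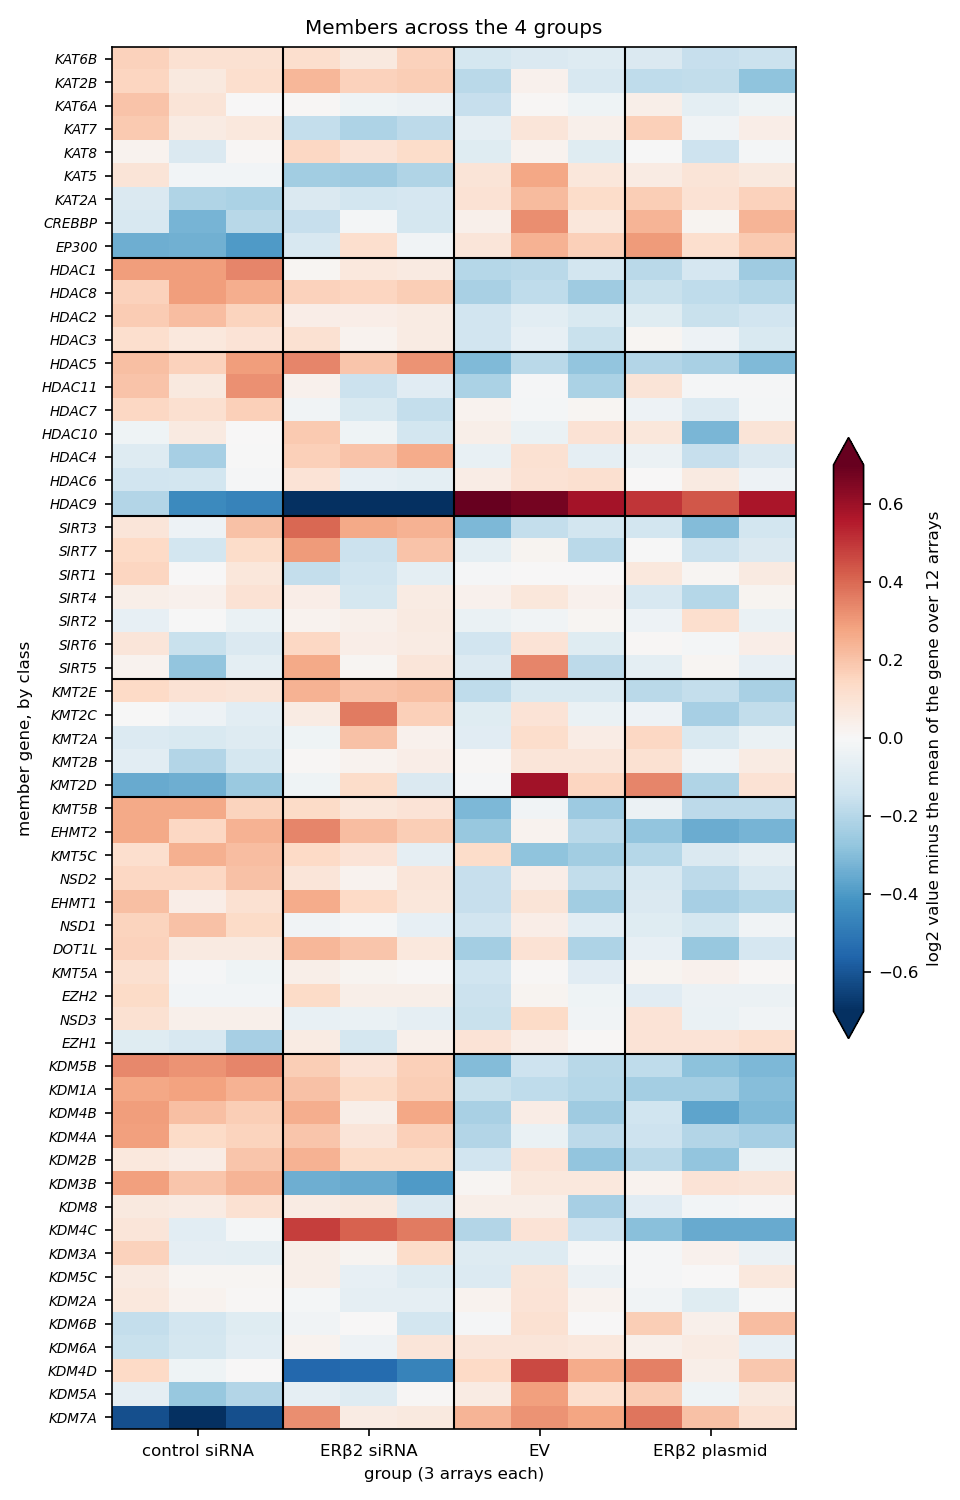
Log2 value of 59 members (rows, by class) on the 12 arrays (columns), as the difference from the mean of the gene over all arrays (red higher, blue lower, scale ended at ±0.7). HDAC9 changes most between the siRNA and plasmid arrays, KDM7A is low in the control siRNA arrays alone, and KDM3B, KDM4D and KDM4C stand out in the ERβ2 siRNA arrays.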

How the data were processed

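Total RNA of 12 BT549 cultures was measured on Affymetrix whole-transcript arrays. Background correction, normalization and probe summary were done by the authors with RMA (Expression Console, its version not given). The deposited log2 values have 2 decimals, and base 2 was taken from RMA. The precision is limited by the number of arrays, 3 per group. Of 33297 transcript clusters, 19181 had 1 symbol, and the brightest cluster per gene left 17958 genes with no filter on dim signals. Shares over all genes therefore include dim genes, and none was counted among genes as bright as the members. Groups were compared with limma (version 3.58.1, under R 4.3.3; eBayes after lmFit, 3 arrays against 3, Benjamini-Hochberg over all genes, tested on simulated data). The difference of both effects and the comparison of the controls used 1 fit of all 12 arrays. A gene was said to rise or fall where its adjusted p did not exceed 0.1, the limit the study's methods set on q-values. The larger changes also needed 1.5-fold and an unadjusted p under 0.05. Members, lists and tests were chosen with earlier results of these data known. Named members were those past 1.5-fold, up to 4 per class with the widest changes among those that passed after knockdown, 8 well-known enzymes, the 3 smallest p-values with the plasmid, the 5 widest differences of both effects and the 4 highest and 4 lowest between the controls, with others by range or in lists, and up to 2 partners per list. Alternatives were other rows, a dim filter (mean of at least 5), quantile, cyclic loess and median scaling, the methods' t-test, an intensity trend with robust prior, an adjusted p of 0.05, 1 fit for all groups, a replicate block and leaving out each array. Promoters came from RefSeq GRCh38.p14.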

Additional observations from a re-analysis of the deposited data

How the results depend on the processing

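The number of members that passed stayed within 1.5 times in all alternatives run, from 16 to 27 after knockdown (16 to 22 when 1 array was left out), from 11 to 19 for the difference of both effects (11 to 17) and from 30 to 41 between the controls (35 to 39). It was 0 for overexpression in each of them. Shares over all genes were not counted under the alternatives. The number that rose after knockdown was less stable than the total, from 5 to 13 against 9, with 5 without control siRNA replicate 2, and the number that fell ran from 8 to 15 against 12. With the replicate number as a block the counts were 22, 0, 12 and 38 in the order knockdown, overexpression, difference and controls. The deviations of same-numbered arrays correlated at 0.01 to 0.22 between the siRNA groups and at −0.14 to 0.10 between the plasmid groups, with 4 and 2 of 6 arrays closest to their own number, so the numbers were not taken to pair the arrays. The members past 1.5-fold after knockdown were 1 with each array centred on its median, which lowers the fall of KDM3B by the shift between the medians, and 1 to 3 when 1 array was left out. By the methods' t-test 25 members passed after adjustment and 2 at their p and fold limits. The ESR2 change after knockdown was 0.05 after cyclic loess, 0.04 with median centring and 0.04 after a second quantile normalization, and ran from −0.09 to 0.07 when 1 array was left out. EHMT2, which did not pass, had −0.01 without control siRNA replicate 2 and −0.02 without ERβ2 siRNA replicate 1, in a range of −0.02 to 0.06. Of 743 values of single members under alternatives, 687 kept their direction and side of the threshold, 52 no longer passed and 2 newly passed (KDM1A). Without read depth, changes near the threshold rest on 3 arrays per group.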
